A study of Mus musculus with 10 samples.

Results

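The genes described here are the ligands and receptors of the colony-stimulating factor family, 9 genes chosen by name from the 55453 genes of the count table. The ligands were Csf1, Il34, Csf2 and Csf3, and the receptor genes were Csf1r, Csf3r, Csf2ra, Csf2rb and Csf2rb2. The 10 libraries hold RNA of hippocampal microglia, sorted as CD45int CD11b+ cells from female 3xTg AD mice, 5 from mice given glatiramer acetate (GA) and 5 from mice given phosphate-buffered saline (PBS). GA is a mixture of random amino acid polymers used as a drug in multiple sclerosis, and it was given by subcutaneous injection, for which the labels state 0.1 mg weekly for about 8 weeks in mice over 15 months old. PBS was injected as the control. Both groups carried the same transgenes, among them mutant human APP (Swedish) and MAPT driven by the Thy1.2 promoter, which acts in neurons. No library of a non-transgenic mouse was analysed here, so the comparison was that of GA with PBS within this genotype.

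CSF1 and IL-34 are alternative ligands of the receptor tyrosine kinase CSF1R, and microglia depend on signalling through this receptor for their survival. In the brain IL-34 is made mainly by neurons, whereas CSF1 is made by glia, microglia included. GM-CSF (Csf2) and G-CSF (Csf3) act on receptors of the cytokine receptor class, which have no kinase of their own and signal through JAK kinases and STAT factors.

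Totals ran from 32332185 to 38764643 counts per library. All 5 PBS libraries carry the title prefix 388 and the GA libraries carry 394 or 400. The meaning of this prefix is not stated, so prefix and treatment cannot be told apart. The labels do not say that each library came from a separate animal, and the p-values therefore measure the spread between libraries, which may be technical. The sorted cells carried their defining markers. The summed level of the microglial marker genes ran from 36920 to 44749 normalized units (CPM, counts scaled to library size with TMM factors) with PBS and from 37319 to 42196 CPM with GA. Among other cell types, astrocyte markers summed to 246 to 353 CPM per library, oligodendrocyte markers to 78.1 to 113 CPM and endothelial markers to 62.0 to 75.7 CPM. Neuronal markers summed to at most 1.77 CPM, those of B cells to at most 0.917 CPM and those of T and NK cells to at most 0.794 CPM. In bulk RNA, fewer cells of a type and less RNA per cell cannot be told apart.

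Of 14481 genes that passed the filter on low counts, edgeR's quasi-likelihood test with Benjamini-Hochberg adjustment called 0 (0%) at an adjusted p-value under 0.05, and limma-voom also called 0. DESeq2 with its defaults called 2, Dcstamp and Gm1070, neither of them a colony-stimulating factor gene. At an unadjusted p-value under 0.05, edgeR gave 833 genes (5.75%), of which 374 (2.58% of those tested) were higher with GA. Of the 9 family genes 6 passed the filter, and 0 of these were called. The unadjusted p-value was under 0.05 for 3 of them, Csf1, Csf3r and Csf2rb2, all with the higher mean in GA. The median log2 fold change of the 6 genes was 0.11, beside 0.00 for all genes tested. With TMM scaling none of the 6 separated the groups fully, which 129 genes (0.891%) did in either direction and 63 (0.435%) did with all GA libraries above all PBS libraries.

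Csf1 (chr3:107741048-107760469, minus strand, GENCODE M21 on GRCm38), the ligand that microglia can make themselves, had the largest log2 fold change of the 6 genes. Its normalized level in the PBS libraries 388_1 to 388_5 was 70.2, 106, 122, 89.7 and 124 CPM. In the GA libraries it was 141 and 140 CPM in 394_1 and 394_2, and 148, 160 and 123 CPM in 400_1, 400_2 and 400_3. In the GA group 4 of 5 libraries lay above every PBS library, and 400_3 lay just under the highest PBS library, 388_5. The means were 103 ± 22.8 CPM with PBS and 142 ± 13.6 CPM with GA (SD, n = 5 each), a ratio of 1.39. These levels rested on 2683 to 4378 counts per PBS library and 4708 to 6123 per GA library. The spread was wider with PBS, where the coefficient of variation was 22.2% against 9.56% with GA. The log2 fold change was 0.47 ± 0.13 (SE, edgeR), with a 95% interval of 0.19 to 0.76. The unadjusted p-value of 0.00306 ranked 41 among all genes tested, and the Benjamini-Hochberg adjusted p-value of edgeR was 0.847. A two-sided exact permutation test of Csf1 alone gave p = 0.0159, where the smallest p-value that 5 against 5 libraries allow is 0.00794. Both GA prefixes had similar means, 141 CPM for 394 and 144 CPM for 400.

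**Figure D1:**
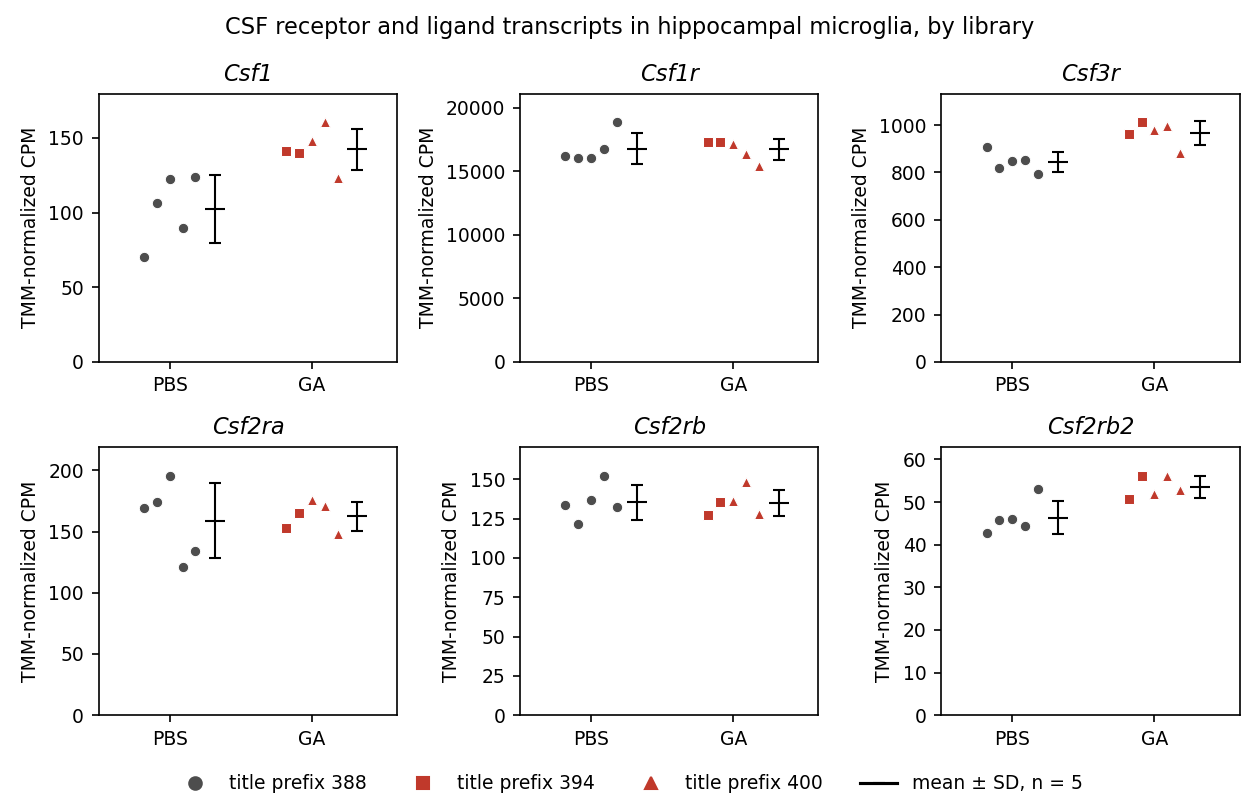
Normalized level (CPM, linear axis from 0) of the 6 detected family genes in each of 5 PBS and 5 GA libraries, 1 point per library, with the group mean and SD. Csf1, Csf3r and Csf2rb2 have higher GA means with some overlap of the libraries, whereas the points of Csf1r, Csf2ra and Csf2rb lie over one another in both groups.

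The other ligands gave no reads. Il34, the second ligand of CSF1R, Csf2, which encodes GM-CSF, and Csf3, which encodes G-CSF, were counted 0 times in each of the 10 libraries. A count of 0 allows up to 3 counts, which at these depths is 0.0772 to 0.0930 CPM per library. The limit takes in counting error alone, because PCR copies of 1 molecule could not be told apart in these reads. Exons of Il34 share 22 and 75 bases of 1959, and those of Csf2 share 96 of 800 bases, with genes on the opposite strand, where counting without the strand could leave reads out. Csf1 was the only one of the 4 ligand genes with counts in the sorted cells.

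Csf1r (chr18:61100598-61132149, plus strand), the receptor for both CSF1 and IL-34, was among the most abundant transcripts, also after scaling for length. The PBS libraries held 16219, 16008, 16068, 16748 and 18841 CPM in the order 388_1 to 388_5. The GA libraries held 17292 and 17312 CPM (394_1 and 394_2) and 17159, 16334 and 15418 CPM (400_1 to 400_3). The highest and the lowest library differed in treatment, 388_5 with PBS and 400_3 with GA, and the groups overlapped between 16008 and 17312 CPM. The means were 16777 ± 1190 CPM with PBS and 16703 ± 823 CPM with GA (SD, n = 5 each). Csf1r took 1.63% to 1.80% of all counts in the PBS libraries and 1.55% to 1.75% in the GA libraries, or 526108 to 664805 counts per library over both groups. The log2 fold change was -0.01 ± 0.06 (SE), with a 95% interval of -0.13 to 0.11 and an edgeR adjusted p-value of 0.993. The interval leaves room for differences up to these bounds in either direction. Exons of Csf1r share 873 bases with Hmgxb3 on the opposite strand, and reads there cannot be assigned if the counting did not use the strand, which is not given in the sources used here.

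The ligand was also set against its receptor within each library, as Csf1 counts per 100 Csf1r counts, without scaling for gene length. This share was 0.433%, 0.665%, 0.761%, 0.536% and 0.659% in the PBS libraries 388_1 to 388_5. It was 0.816% and 0.809% in 394_1 and 394_2, and 0.860%, 0.983% and 0.797% in 400_1 to 400_3. Every GA library lay above every PBS library on this scale. The PBS library with the highest Csf1 level, 388_5, also had the highest Csf1r level, which is flagged below as standing apart. The GA library with the lowest Csf1 level, 400_3 (123 CPM), had the lowest Csf1r level of all libraries (15418 CPM). Of the 14480 tested genes other than Csf1r, 54 (0.373%), Csf1 among them, separated in this way when divided by Csf1r. Csf3r did not, with 4.22% to 5.60% of the Csf1r counts in the PBS libraries and 5.57% to 6.10% in the GA libraries. The ratios were chosen with the values known and are given as a description, without a test.

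**Figure D2:**
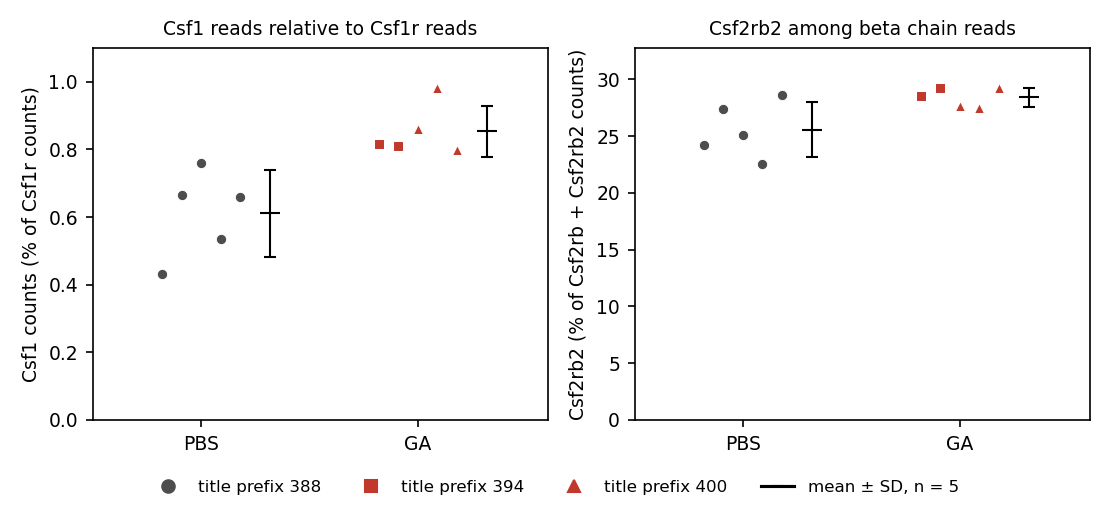
Shares within each library (percent, linear axis from 0), 1 point per library for 5 PBS and 5 GA libraries, with the group mean and SD. Csf1 counts as a percent of Csf1r counts run from 0.433% to 0.761% with PBS and from 0.797% to 0.983% with GA, and Csf2rb2 as a percent of both beta chain genes from 22.5% to 28.6% and from 27.5% to 29.3%.

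Csf3r (chr4:126024550-126044440, plus strand) encodes the G-CSF receptor, which is best known for its role in neutrophil production and is also transcribed by microglia. It was measured at 907, 817, 849, 853 and 794 CPM in the PBS libraries 388_1 to 388_5. The GA levels were 964 and 1012 CPM in 394_1 and 394_2, and 978, 997 and 884 CPM in 400_1 to 400_3. As for Csf1, 4 of 5 GA libraries lay above every PBS library, and the exception, 400_3, lay below 388_1. The means were 844 ± 42.8 CPM with PBS and 967 ± 49.8 CPM with GA (SD, n = 5 each), a ratio of 1.15. The log2 fold change was 0.20 ± 0.06 (SE, edgeR), with a 95% interval of 0.07 to 0.32, an unadjusted p-value of 0.00453 and an adjusted p-value of 0.847. The two-sided exact permutation test of Csf3r alone gave p = 0.0159. Its depth of 27343 to 38021 counts per library makes counting error small beside the spread between libraries.

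Neutrophil markers are given beside Csf3r because neutrophils express it. Of 9 marker genes 7 passed the filter, all 7 had the lower mean with GA, 0 were called by edgeR at an adjusted p-value under 0.05, and the unadjusted p-value was under 0.05 for 6 of them. By the same test 833 of all 14481 genes (5.75%) did so in either direction. The 7 markers belong to the same cell type and varied largely together between libraries, so they are not 7 separate results. Their summed level ran from 36.2 to 426 CPM with PBS, median 276, and from 9.88 to 162 CPM with GA, median 40.5. Across the 10 libraries the log2 level of Csf3r and that of the summed neutrophil markers gave Pearson r = -0.56 (permutation p = 0.0953) and Spearman rho = -0.49. With the group means removed, r was -0.11. The part of neutrophils in the Csf3r level was not tested.

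The 3 genes with an unadjusted p-value under 0.05 had the same sign of difference, and their promoters are shown for that reason. They come from RefSeq on the build GRCm38.p6, where 5 of the 9 family genes matched an entry (Csf1, Csf2, Csf3r, Csf2ra and Csf2rb2). Il34, Csf1r, Csf3 and Csf2rb had none. Each runs from 250 bases before the transcript start to 50 bases after it and is written along the strand of the gene. Capitals mark matches, on either strand, to 6 motifs. These were the core of PU.1 sites GAGGAA, its longer form GAGGAAGT, which contains the former, the NF-kappaB-type GGGACTTTC, the AP-1-type TGAGTCA, the GC box CCGCCC and the TATA box TATAAA.
Csf1, chr3:107760420-107760719, minus strand: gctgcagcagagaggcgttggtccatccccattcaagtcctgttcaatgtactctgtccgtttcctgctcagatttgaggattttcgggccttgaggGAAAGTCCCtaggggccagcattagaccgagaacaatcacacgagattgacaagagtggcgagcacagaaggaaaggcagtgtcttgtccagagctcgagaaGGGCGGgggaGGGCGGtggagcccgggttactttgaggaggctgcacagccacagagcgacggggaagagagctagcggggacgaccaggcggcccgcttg
Csf3r, chr4:126024409-126024708, plus strand: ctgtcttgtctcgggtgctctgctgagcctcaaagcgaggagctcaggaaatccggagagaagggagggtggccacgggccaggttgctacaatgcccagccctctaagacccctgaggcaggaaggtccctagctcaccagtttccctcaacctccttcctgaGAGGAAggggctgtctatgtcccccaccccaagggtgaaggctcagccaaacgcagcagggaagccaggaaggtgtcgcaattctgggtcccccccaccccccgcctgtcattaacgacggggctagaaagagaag
Csf2rb2, chr15:78305672-78305971, minus strand: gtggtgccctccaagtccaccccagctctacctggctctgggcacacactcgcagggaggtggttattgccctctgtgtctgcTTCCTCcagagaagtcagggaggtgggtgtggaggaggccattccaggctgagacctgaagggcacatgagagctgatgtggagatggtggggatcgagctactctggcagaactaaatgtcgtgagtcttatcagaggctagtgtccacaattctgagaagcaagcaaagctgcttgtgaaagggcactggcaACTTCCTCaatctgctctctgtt

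The Csf1 promoter held the NF-kappaB-type motif, written on the other strand, at -153 to -145 from the start, and 2 GC boxes at -51 to -46 and -41 to -36. The Csf3r promoter held the PU.1-type core once, at -86 to -81. The Csf2rb2 promoter held this core 2 times, at -167 to -162 and at 29 to 34, the second within the longer form at 27 to 34. The promoter of Csf2ra, whose log2 fold change was 0.03, also held the core 2 times, at -14 to -9 and -8 to -3, and a GC box, and that of Csf2, at 0 counts, held a GC box. No motif of the 6 was common to all 3 promoters. Among 32851 mouse promoters of the same length, the core was found in 28.3%, the longer form in 3.20%, the NF-kappaB-type motif in 0.353%, the AP-1-type motif in 5.20%, the GC box in 35.7% and the TATA box in 13.6%. A match describes letters in this window and is not evidence of binding.

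The GM-CSF receptor pairs an alpha chain that binds the cytokine (Csf2ra) with a beta chain that signals. The mouse has a pair of beta chain genes near each other on chromosome 15. They are Csf2rb (chr15:78325752-78353847, plus strand), whose product serves the receptors for GM-CSF, IL-3 and IL-5, and Csf2rb2 (chr15:78282507-78305721, minus strand), whose product serves that for IL-3. Csf2ra stood at 169, 174, 196, 121 and 134 CPM in the PBS libraries 388_1 to 388_5. With GA it stood at 153 and 165 CPM in 394_1 and 394_2, and at 176, 171 and 148 CPM in 400_1 to 400_3. All GA values fell inside the PBS range. The means were 159 ± 30.7 and 162 ± 12.02 CPM (SD, n = 5 each), and the log2 fold change was 0.03 ± 0.11 (SE, 95% interval -0.21 to 0.28, edgeR adjusted p-value 0.978).

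Csf2rb was read at 134, 121, 137, 152 and 132 CPM in the PBS libraries. Its GA levels were 127 and 136 CPM in 394_1 and 394_2, and 136, 148 and 128 CPM in 400_1 to 400_3. The means, 135 ± 11.2 and 135 ± 8.48 CPM (SD, n = 5 each), lay much closer together than the libraries of either group. The log2 fold change was -0.00 ± 0.07 (SE, 95% interval -0.16 to 0.15, edgeR adjusted p-value 0.997).

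Csf2rb2 was measured at 42.7, 45.7, 45.9, 44.4 and 53.1 CPM in the PBS libraries 388_1 to 388_5. The GA libraries gave 50.8 and 56.2 CPM for 394_1 and 394_2, and 51.9, 56.1 and 52.7 CPM for 400_1 to 400_3. All 5 GA values exceeded 4 of the PBS values, and 388_5 stood inside the GA range. The means were 46.4 ± 3.95 CPM with PBS and 53.6 ± 2.50 CPM with GA (SD, n = 5 each), a ratio of 1.16, from 1432 to 2142 counts per library. The log2 fold change was 0.21 ± 0.08 (SE, edgeR), with a 95% interval of 0.05 to 0.37, an unadjusted p-value of 0.0160 and an adjusted p-value of 0.847. The exact permutation test of Csf2rb2 alone gave p = 0.0317. Scaled to library totals without TMM, the groups did not overlap, with 50.6 CPM in 388_5 and 50.9 CPM in 394_1, and the exact permutation p was 0.00794. On that scale 64 of the genes tested (0.442%) had all GA libraries above all PBS libraries.

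The beta chain genes are near copies, and how reads divide between them bears on these values. Their coding sequences matched at 95.2% of 2628 aligned bases, with a longest identical run of 242 bases. Of all stretches of 100 bases, the read length of the study, 4.63% of Csf2rb and 6.82% of Csf2rb2 occurred in both genes, so reads there cannot be assigned to 1 gene. The 90 coding bases in which the genes differ most are shown, from exon 5 of Csf2rb and exon 4 of Csf2rb2 on GRCm38, with capitals at the 16 bases that differ.
Csf2rb, chr15:78338897-78338986, plus strand: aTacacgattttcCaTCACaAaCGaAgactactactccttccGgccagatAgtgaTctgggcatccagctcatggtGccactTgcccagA
Csf2rb2, chr15:78294345-78294434, minus strand: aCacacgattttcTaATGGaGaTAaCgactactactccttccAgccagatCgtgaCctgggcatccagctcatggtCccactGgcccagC

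Csf2rb2 took 24.2%, 27.4%, 25.1%, 22.5% and 28.6% of the counts of both beta chain genes in the PBS libraries 388_1 to 388_5. It took 28.6%, 29.3%, 27.6%, 27.5% and 29.2% in the GA libraries. The shares overlapped, since 388_5 stood among the GA libraries and 388_2 just under the lowest of them. Counted as 1 gene, a choice made after seeing the data, the pair stood at 182 ± 11.0 CPM with PBS and 189 ± 10.5 CPM with GA (SD, n = 5 each), a log2 fold change of 0.05 ± 0.06 (SE, edgeR adjusted p-value 0.949).

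The level of Csf2rb moved with markers of border-associated macrophages and with a monocyte list that includes F13a1. Over the 10 libraries it correlated with the summed markers of border-associated macrophages (Pearson r = 0.89, permutation p = 0.00059; Spearman rho = 0.87, p = 0.00225) and with those of monocytes (r = 0.89, p = 0.0005; rho = 0.85, p = 0.0025). After Benjamini-Hochberg adjustment over 24 such relations, both Pearson values gave 0.00708 and both Spearman values gave 0.0300. Without the 2 libraries farthest from the median of the marker sum, r was 0.71 for border-associated macrophages and 0.92 for monocytes. With the group means removed it was 0.89 and 0.91. The summed markers of border-associated macrophages ran from 35.7 to 174 CPM with PBS and from 36.0 to 131 CPM with GA, and those of monocytes from 41.6 to 165 CPM and from 47.7 to 99.5 CPM. The monocyte sum includes F13a1, which border-associated macrophages also express and which ran from 13.1 to 81.0 CPM per library. Without F13a1, a choice made after seeing the data, the monocyte sum gave r = 0.63 (permutation p = 0.0451) and rho = 0.55 (p = 0.104), and r was 0.36 without the 2 farthest libraries and 0.72 with the group means removed. With F13a1 in the monocyte list, the 2 relations are not fully separate. The CD45int gate of the sort is meant to leave out cells high in CD45, such as infiltrating monocytes. The title prefixes 394 and 400 held too few libraries (2 and 3) for a value within each. Within prefix 388, which holds the 5 PBS libraries, no correlation was computed. Among these, 388_4 was the highest and 388_2 the lowest in Csf2rb and in both marker sums. The part of border-associated macrophages and monocytes in the Csf2rb level was not tested. Csf2rb and the summed neutrophil markers gave r = 0.13 and rho = 0.20. The other 22 relations, this one included, had adjusted Pearson p-values of at least 0.68.

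**Figure D3:**
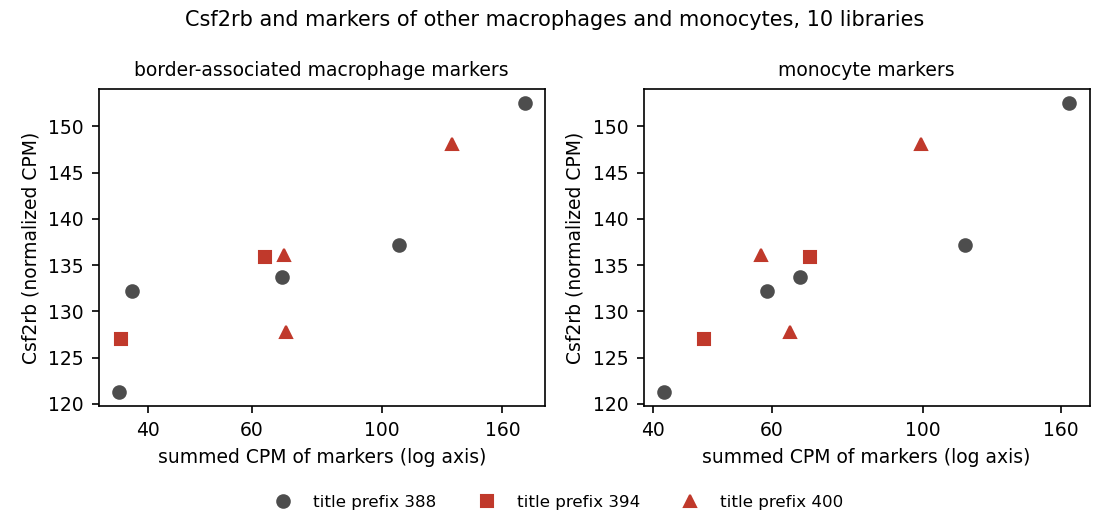
Csf2rb level against the summed level of the border-associated macrophage markers and of the monocyte markers (CPM, log horizontal axis; Csf2rb on a linear axis that does not start at 0), 1 point per library, coloured by treatment. Points run from lower left to upper right in both panels (r = 0.89 in each), with 388_4, at 152 CPM of Csf2rb, at the top.

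Levels were compared between genes after dividing by exon length, as CPM per kilobase. With PBS the order was Csf1r (2906 ± 206), Csf3r (234 ± 11.9), Csf2ra (55.3 ± 10.7), Csf1 (19.4 ± 4.32), Csf2rb (18.6 ± 1.55) and Csf2rb2 (9.78 ± 0.834; SD, n = 5 each). With GA the order was the same, at 2893 ± 143, 268 ± 13.8, 56.6 ± 4.19, 27.0 ± 2.58, 18.5 ± 1.17 and 11.3 ± 0.527. Neighbours in this order did not overlap in any library, except Csf1 and Csf2rb with PBS, which ran from 13.3 to 23.5 and from 16.7 to 21.0 CPM per kilobase. With GA this pair was apart, at 23.3 to 30.4 against 17.5 to 20.3. Csf1r ranked 8 among 14353 genes with a length, Csf3r 107, Csf2ra 682, Csf1 1976, Csf2rb 2496 and Csf2rb2 4222. The transcript of the G-CSF receptor was thus far more abundant per length than those of the GM-CSF receptor chains in these cells. The length took in the exons of all transcripts of a gene, for Csf2rb 7277 bases against 2688 coding bases. Reads that the beta chain genes share may be missing from both.

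**Figure D4:**
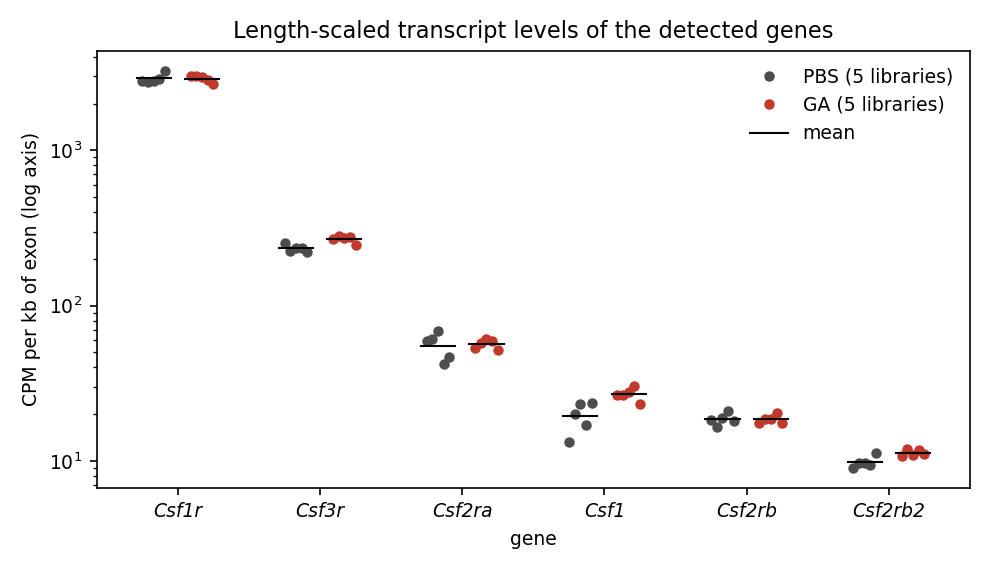
Level per kilobase of exon (CPM per kilobase, log axis) of the 6 detected family genes, 1 point per library for 5 PBS and 5 GA libraries, with a line at each mean. The genes span from about 9.78 for Csf2rb2 to about 2906 for Csf1r in the PBS means, and the treatment difference of each is small beside the distance between most genes.

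The related genes were read as lists, with 0 adjusted calls by edgeR in each. Of 7 partner genes 2 passed the filter: Tyrobp, an adaptor that works with microglial receptors, at 991 ± 104 CPM with PBS and 1059 ± 44.2 CPM with GA, and Il3ra, the IL-3 receptor alpha chain, at 18.6 ± 1.67 and 19.4 ± 2.15 CPM (SD, n = 5 each). The ligand genes Il3 and Il5 and the IL-5 receptor alpha chain gene Il5ra were counted 0 times in each library. Of 4 receptor tyrosine kinases related to CSF1R, 2 passed the filter. Flt3, the receptor for FLT3 ligand, stood at 8.80 ± 1.90 CPM with PBS and 9.73 ± 1.09 CPM with GA, with a log2 fold change of 0.14. Pdgfrb, a receptor for platelet-derived growth factor, stood at 3.99 ± 1.38 and 3.52 ± 0.657 CPM, with a log2 fold change of -0.18.

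All 21 genes of the signalling pathway under CSF1R were tested, 10 with the higher and 11 with the lower mean in GA, at a median log2 fold change of -0.01. The unadjusted p-value was under 0.05 for 2, both lower with GA. Akt2, a kinase under PI3-kinase, stood at 53.8 ± 4.41 and 47.2 ± 2.24 CPM (log2 fold change -0.19, unadjusted p = 0.0270, edgeR). Mapk3, which encodes ERK1, stood at 138 ± 10.7 and 124 ± 3.72 CPM (-0.16, unadjusted p = 0.0324, edgeR). Among the genes with the higher mean, the lowest p-value was that of Ptpn6, which encodes the phosphatase SHP-1, at 574 ± 30.5 and 616 ± 38.8 CPM (0.10). Of 14 genes of the JAK and STAT pathway 13 were tested, 12 with the higher mean in GA, over a range of -0.03 to 0.24 with a median of 0.05 and no unadjusted p-value under 0.05. Of all genes tested 50.1% had the higher mean in GA. Socs3, a feedback inhibitor, stood at 66.0 and 73.9 CPM in 394_1 and 394_2 and at 42.3, 45.2 and 48.1 CPM in 400_1 to 400_3, beside 45.5 to 52.7 CPM with PBS, so that its higher GA mean rested on prefix 394. Stat5b, a main mediator of GM-CSF, stood at 90.7 ± 9.28 CPM with PBS and 99.1 ± 5.54 CPM with GA. The gene with the lower mean was Jak1, a kinase of cytokine receptors, at 402 ± 44.3 and 394 ± 26.5 CPM.

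Transcription factors known to act on Csf1r split 3 higher and 4 lower of 7, with a median log2 fold change of -0.03 and no unadjusted p-value under 0.05. The lowest p-values in each direction were those of Fli1, an ETS factor, at 243 ± 27.3 CPM with PBS and 224 ± 7.71 CPM with GA (log2 fold change -0.12), and Cebpa, a myeloid factor, at 111 ± 20.7 and 117 ± 6.33 CPM (0.08). Spi1, which encodes PU.1, stood at 387 ± 31.0 CPM with PBS and 395 ± 17.5 CPM with GA (SD, n = 5 each). Of 12 genes of the disease-associated microglia state 8 had the higher and 4 the lower mean in GA, with a median of 0.06. In this list 1 gene had an unadjusted p-value under 0.05, Cst7, which encodes cystatin F, with a log2 fold change of 0.31 (unadjusted p = 0.0393, edgeR). Cst7 stood at 278 and 281 CPM in 394_1 and 394_2, within the PBS range of 193 to 315 CPM, and at 383, 423 and 343 CPM in 400_1 to 400_3, so that its difference rested on prefix 400. Among the 4 lower genes the lowest p-value was that of Ccl6, a chemokine, at 349 ± 44.2 and 320 ± 28.2 CPM (log2 fold change -0.12).

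**Figure D5:**
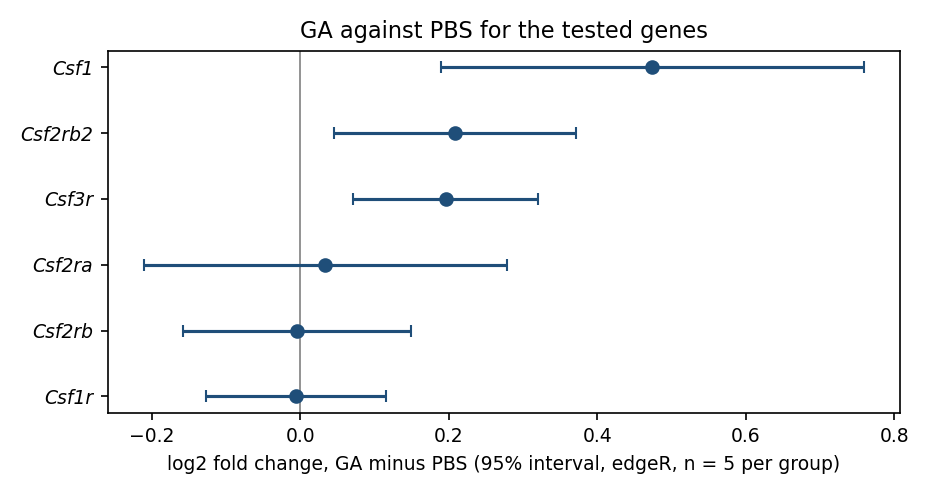
Log2 fold change of GA against PBS by edgeR, with its 95% interval, for the 6 tested family genes. The intervals of Csf1, Csf3r and Csf2rb2 lie above 0 and those of Csf1r, Csf2ra and Csf2rb cover 0, before any adjustment over the 14481 genes tested.

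Among the 15 pairs of detected family genes, Csf1 and Csf2rb2 were the most alike across the 10 libraries. Pearson's r was 0.86 (permutation p = 0.00035, Benjamini-Hochberg adjusted 0.00525) and Spearman's rho was 0.78 (p = 0.00992, adjusted 0.149). It was 0.73 without 388_1 and 388_4, the libraries farthest from the median of Csf1, and 0.68 with the group means removed. Without the same 2 libraries Csf1 was more like Csf3r (r = 0.86) and Csf2rb (r = 0.77) than Csf2rb2. The order of the pairs thus rests on these libraries. With all 10 libraries, r of Csf1 was 0.48 with Csf3r and 0.002 with Csf2rb. Once the group means were removed, these values were -0.32 and 0.02. Over all 10 libraries no other pair had an adjusted p-value under 0.05.

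Genes with a pattern like that of each family gene were named over 8691 genes of at least 10 CPM, by Pearson's r of log2 CPM over the 10 libraries. For Csf1 these were Pex10 (r = 0.98, a peroxisome biogenesis gene), Cpd (0.93, carboxypeptidase D) and Ptger4 (0.92, a prostaglandin E2 receptor). For Csf2rb they were Lyve1 (0.95), of the border-associated macrophage list, F13a1 (0.91), of the monocyte list, and Cpt1a (0.91). Csf3r was most like Pfkfb4 (0.93), Il1rl2 (0.91, the IL-36 receptor) and Zfp799 (0.89), and Csf1r most like Rpn1 (0.93), Itgb1 (0.92) and Hsd17b4 (0.91). Csf2ra was most like Dip2a (0.96), Map2k7 (0.95) and Sugp2 (0.93), and Csf2rb2 most like Myo1e (0.90), Ermp1 (0.90) and C1galt1 (0.90). These are descriptions of 10 libraries that share sort and preparation. Of the 18 genes, 3 stayed among the 3 most alike by Spearman's rho and 6 with the group means removed.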

How the data were processed

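Microglia sorted from hippocampi gave 10 libraries (5 PBS, 5 GA). The authors deposited a table of raw read counts per gene, whole numbers without normalization. The submitters' processing notes name bcl2fastq 2.19.0, fastp 0.20.0, STAR 2.7.0f, Subread 1.6.4, featureCounts, DESeq2 and the build GRCm38.p6. The annotation and the strand setting of the counting are not given in the sources used here. Libraries were amplified from about 1 ng of RNA with the SMARTer Ultra Low Input kit and sequenced as single reads of 100 bases.

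The software was R 4.3.3 (edgeR 4.0.16, limma 3.58.1, DESeq2 1.42.0) and Python 3.11.15 (scipy 1.17.1). After filterByExpr (minimum count 10) and TMM scaling, GA was tested against PBS by the quasi-likelihood F-test of edgeR, with Benjamini-Hochberg adjustment over 14481 genes and a threshold of 0.05. For 1 gene at a time a two-sided exact permutation test was run on log2(CPM + 0.1), and for correlations 100000 permutations. Exon lengths and gene positions came from GENCODE M21, and 99.1% of tested genes had a length. The alternatives were DESeq2 with its defaults, limma-voom, DESeq2 size factors, no filter, at least 10 counts in every library, a robust fit, each library left out, the GA libraries of either prefix alone and a replicate block on the title number. The procedure was tested on simulated data.

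The genes named were the members of the family, genes of the related and marker lists (among them the lowest p-value of each related list in either direction), and the 3 genes most alike in pattern to each member. The members and lists were chosen with earlier results of these data known.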

Additional observations from a re-analysis of the deposited data

Results flagged for a closer look

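Csf1r in the PBS library 388_5, at 18841 CPM, stood apart from the other PBS libraries, which ran from 16008 to 16748 CPM. The gap to the nearest of them was 0.739 of the group's range, above Dixon's critical value of 0.71 for 5 samples. Such a gap was looked for in 12 groups, 6 genes in 2 treatments, and arises by chance in about 5% of groups.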

How the results depend on the processing

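Csf1, Csf3r and Csf2rb2 kept the higher GA mean under all 19 alternatives, with log2 fold changes of 0.36 to 0.56, 0.16 to 0.23 and 0.18 to 0.27 and lowest adjusted p-values of 0.207, 0.233 and 0.495, all with DESeq2. DESeq2 called 2 genes in all, and leaving out 1 library gave 0 to 1 calls by edgeR, the 1 call being Gm15920 without 394_1. With 1 library left out, exact permutation p-values ran from 0.00794 to 0.0397 for Csf1, 0.0159 to 0.0238 for Csf3r and 0.00794 to 0.0476 for Csf2rb2. The signs of the other 3 genes were not fixed. For Csf1r the log2 fold change was 0.00288 without the filter and 0.0508 with prefix 394 alone, and with 1 library left out it ran from -0.0225 to 0.0435, and the difference of mean log2 CPM from -0.0213 to 0.0375. For Csf2ra these ran from -0.0497 to 0.121 and from -0.0400 to 0.134. For Csf2rb it was 0.00548 without the filter, 0.0257 with prefix 400 alone and 0.0528 for the pair counted as 1 gene, and the ranges were -0.0411 to 0.0420 and -0.0414 to 0.0410. The title number used as a replicate block gave 0.0413 for Csf1r, -0.145 for Csf2ra and 0.0442 for Csf2rb and called 0 genes. Libraries share only a number, which nothing in the labels ties to a common animal or day. The cause of these sign changes was not tested. Depth does not limit the 6 detected genes, each with at least 1432 counts per library, but sets the limit of 0.0772 to 0.0930 CPM for Il34, Csf2 and Csf3.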
